A study of Mus musculus with 29 samples.

Results

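The comparison described here was of vehicle-treated 3T3-L1 cells at day 7 of differentiation (4 libraries) with the same kind of cells at day 2 (3 libraries), over all 11959 genes of the count table. These 7 libraries were chosen by their day and treatment labels, with no measured value, from 29 libraries in 8 groups. 3T3-L1 is a mouse fibroblast line that can be grown as preadipocytes and induced to form white adipocytes. The cells of both groups had received DMSO, the vehicle, from day -2, when the cultures were confluent, to day 0, and had never received KDM5-C70 (C70), the inhibitor of KDM5 histone demethylases used in the study. From day 0 to day 2 all cultures had a differentiation medium with dexamethasone, insulin, isobutylmethylxanthine and a PPARγ agonist. From day 2 on, insulin and dexamethasone alone of these agents were kept in the medium. The day and the medium therefore cannot be told apart. Used beside these groups were vehicle cells at day 0 and day 1 (3 libraries each) and cells given 10 µM C70 from day -2 to day 0 and collected at day 2 or day 7 (4 libraries each). The labels do not say that replicates came from separate cultures, so P values measure the spread between these samples, which may be technical.

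Confluent 3T3-L1 preadipocytes leave growth arrest when they are induced, pass through a short burst of division known as mitotic clonal expansion, and then stop dividing for good. During and after this exit, C/EBPα and PPARγ, the transcription factors that hold the adipocyte programme, drive the genes of lipid synthesis, lipid droplets, hormone secretion and insulin-responsive glucose uptake. In dividing cells, genes of DNA replication are controlled largely by E2F factors and genes of mitosis by B-MYB, FOXM1 and the MuvB core. In arrested cells the same genes are held off by the retinoblastoma family and the DREAM complex, which acts at short promoter elements named CHR and at E2F sites.

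Total counts of the 7 libraries ranged from 18781225 to 23768093, and 11184 genes had more than 1 count per 1000000 counts (CPM) in every one of them. Every gene of the table exceeded 1 CPM in at least 20 of the 29 libraries, whereas only 8 libraries were of day 7. A gene above this level at day 7 alone could therefore not be in the table, whereas a gene that was off at day 7 could be. Lep, Cidea and Plin5 were not analysed here. Replicate 1 of day 7 stood apart from the other day 7 libraries. The first principal component of the 7 libraries, with 87.6% of the variance, separated the days, and the second, with 6.65%, placed this library at 29.3 and the other 3 of day 7 between -16.5 and -2.49. Its values also varied with transcript length. In replicate 1, the median over the 2991 genes of the shortest summed exon length (up to 2701 bases) lay 0.30 above the mean of the other day 7 libraries on the log2 scale, and that over the 2989 longest (from 6800 bases) lay 0.24 below. The median log2 fold change from day 2 to day 7 was 0.15 in these short genes and -0.19 in the long ones, and 0.10 and -0.12 without replicate 1. The part of length in the results was not tested, and values without this library are given beside many of the results. The median coefficient of variation was 4.61% at day 2 and 10.9% at day 7.

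Of the 11959 genes, 6378 (53.3%) changed between day 2 and day 7. A gene was called changed if the adjusted P value of edgeR's quasi-likelihood test was under 0.05 and its log2 fold change was over 0.32 or under -0.32, and "rose" and "fell" are used of such genes only. Of all genes, 3182 (26.6%) rose and 3196 (26.7%) fell, and these shares are the background against which the gene lists are to be read. The libraries of the 2 days did not overlap for 7834 genes (65.5%). Without replicate 1 of day 7, 3159 genes rose and 3034 fell, 5859 genes kept their call and direction, and no called gene had the opposite sign. With scaling to the total count in place of trimmed means, the median over all genes moved from -0.0013 to -0.12, and 2503 genes rose and 4059 fell.

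More than 8-fold falls were seen in 142 genes and more than 8-fold rises in 72. These numbers cannot be compared as directions, since the table could hold genes that were off at day 7 but none that were on at day 7 alone. Of the 142 falls, 73 were in 6 lists of proliferation genes that held 229 of the measured genes. In bulk RNA, fewer cells expressing a gene and less RNA per cell cannot be told apart, and this holds for every fall described here.

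**Figure D1:**
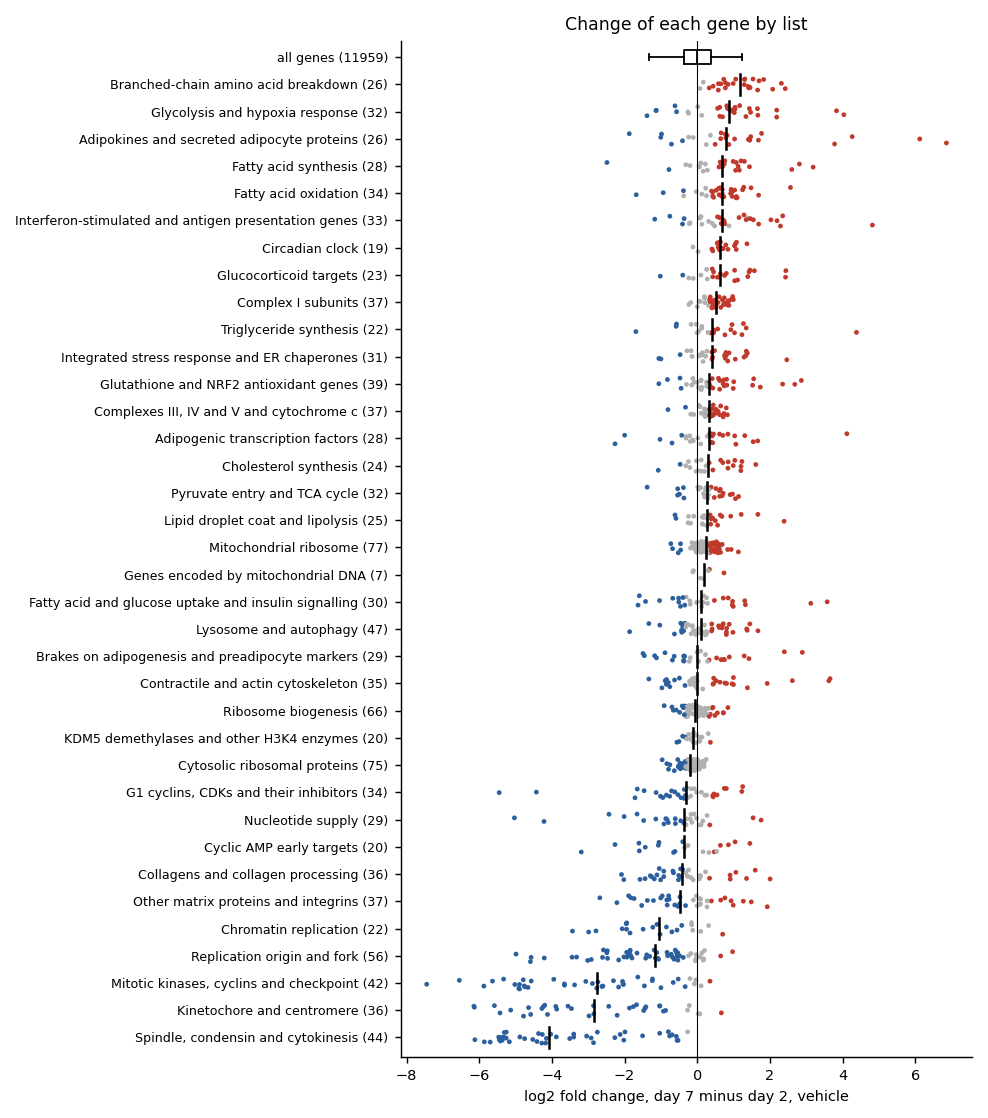
Change of every measured gene in 36 gene lists from day 2 to day 7 in vehicle-treated cells (horizontal axis, log2 fold change). Points are genes, red where they rose, blue where they fell and grey where they were not called, black bars are list medians, the number measured is in brackets, and the box at the top gives the median, quartiles and the range from the 5th to the 95th percentile of all 11959 genes. The medians run from -4.09 for spindle and cytokinesis genes to 1.18 for the breakdown of branched-chain amino acids.

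Among the genes of cell division, Mki67, the proliferation marker that coats mitotic chromosomes, was at 110, 116 and 114 CPM in the 3 libraries of day 2 and at 2.62, 2.03, 2.11 and 1.97 CPM in replicates 1 to 4 of day 7. These values, given in this order throughout, did not overlap, and the mean at day 2 was 51.9 times that at day 7 (log2 fold change -5.70 ± 0.11, adjusted P = 6.7e-27). Top2a, the topoisomerase that untangles replicated chromosomes, fell from 128 ± 1.34 CPM (mean ± SD) to 3.23 ± 0.476 CPM (log2 fold change -5.32 ± 0.11, adjusted P = 4.1e-26). Both genes had also been high before and during the first day of induction. Mki67 was at 135 ± 16.2 CPM at day 0 and 164 ± 7.49 CPM at day 1, and Top2a at 114 ± 15.4 and 243 ± 23.2 CPM. Among these 4 days, only day 7 had low levels of either gene.

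**Figure D2:**
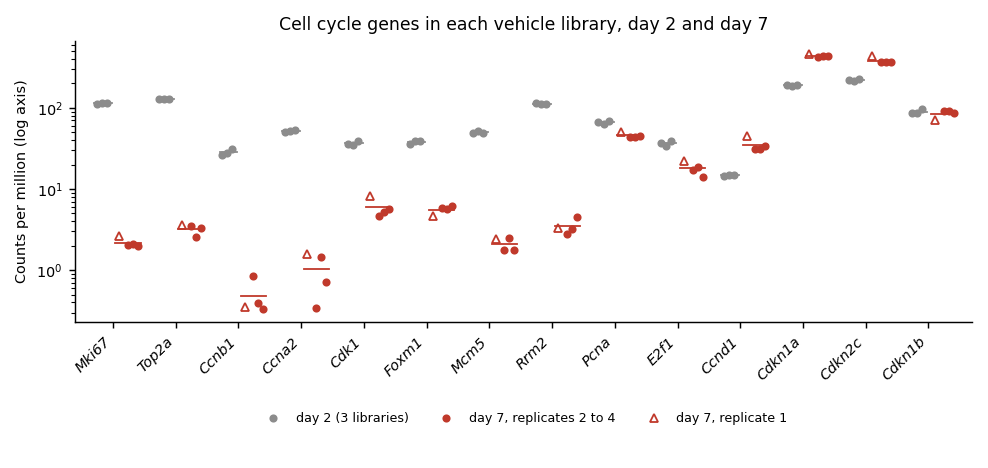
CPM of 14 cell cycle genes in each vehicle library (vertical axis, logarithmic). Grey points are the 3 libraries of day 2, red points the day 7 libraries, the open triangle day 7 replicate 1, and lines the group means. Mki67 lies near 113 CPM at day 2 and near 2.18 CPM at day 7, whereas Cdkn1a and Cdkn2c are higher at day 7 and Cdkn1b overlaps.

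Mitotic kinases, cyclins and checkpoint genes fell in 37 of 42 cases (88.1%), with a median log2 fold change of -2.75 (-1.64 without the least abundant genes of the table). Ccnb1, the cyclin that takes cells into mitosis, went from 26.4, 27.5 and 31 CPM to 0.349, 0.845, 0.392 and 0.329 CPM, and Ccna2, the cyclin of S and G2 phase, from 51.6 ± 1.57 to 1.02 ± 0.596 CPM. Cdk1, the kinase that both cyclins bind, was not lost to the same degree. It stood at 36, 34.7 and 38.8 CPM at day 2 and at 8.15, 4.68, 5.24 and 5.7 CPM at day 7 (log2 fold change -2.62 ± 0.11, adjusted P = 1.9e-19). Bub1, a checkpoint kinase at kinetochores, was the deepest fall of the list, with 1481 counts over the day 2 libraries and 9 over those of day 7, 0 in replicate 1. The ratio of the scaled counts was 183, with an exact 95% interval of 96.1 to 401 that covers counting error only. For Pbk, a mitotic kinase, 1129 and 13 counts gave a ratio of 96.5 (56.2 to 182). Wee1, a kinase that delays mitosis, was the single riser of the list (0.35 ± 0.08), and its call was lost without day 2 replicate 1 (0.25), day 7 replicate 2 (0.29) or day 7 replicate 3 (0.32).

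Kinetochore and centromere genes fell in 31 of 36 cases (86.1%, median -2.85) and spindle, condensin and cytokinesis genes in 43 of 44 (97.7%, median -4.09), with no riser among the latter. Without the least abundant genes of the table these medians were -1.44 and -2.27. Knl1, the scaffold that docks checkpoint proteins at kinetochores, had 1436 counts at day 2 and 22 at day 7, a ratio of 72.5 (47.7 to 116). Cenpf, a large kinetochore protein, went from 44.3 ± 2.32 CPM to 0.625 ± 0.181 CPM (-6.13 ± 0.12). Among spindle genes, Kif18b, a kinesin that shortens microtubules, had 592 and 9 counts, a ratio of 73.1 (38.3 to 161), and Dlgap5, a microtubule-binding protein, 1066 and 20 counts, a ratio of 59.2 (38.2 to 97.4). Tpx2, which activates Aurora A on the spindle, fell from 69, 64.7 and 67.1 CPM to 7.68, 5.75, 5.19 and 6.85 CPM (log2 fold change -3.40 ± 0.09, adjusted P = 3.5e-24). Zwint, a kinetochore protein by name and function, did the reverse. It was at 127, 123 and 126 CPM and then at 203, 194, 201 and 195 CPM (log2 fold change 0.66 ± 0.04, adjusted P = 8.6e-15), with no overlap of libraries.

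Genes of replication fell less deeply. Of 56 genes of origins and forks, 44 (78.6%) fell and 2 rose, with a median of -1.17. Within the MCM helicase, which unwinds the DNA at forks, the subunits differed. Mcm5 fell from 50.2 ± 1.32 to 2.1 ± 0.402 CPM (-4.57 ± 0.11) and Mcm6 from 79 ± 1.66 to 9.82 ± 2.03 CPM (-3.02 ± 0.08), whereas Mcm2 still stood at 21.9, 21.7, 26 and 26.1 CPM after 77, 73.6 and 76.5 CPM (-1.66 ± 0.06). Pcna, the sliding clamp of the polymerases, was reduced least of the named replication genes that fell, from 66.6, 63.4 and 68.1 CPM to 50.2, 43.7, 43.6 and 45 CPM (log2 fold change -0.53 ± 0.07, adjusted P = 1.9e-08). Clspn, which relays fork stress, had 897 and 31 counts (ratio 32.2, 22.5 to 47.6), and Ticrr, needed to fire origins, 508 and 23 counts (ratio 24.6, 16.2 to 39.1). Rises were those of Pole4 (0.97 ± 0.07), a small accessory subunit of polymerase epsilon, and Orc5 (0.64 ± 0.07), a subunit of the origin recognition complex.

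Chromatin replication genes fell in 16 of 22 cases (72.7%, median -1.07). Chaf1b, a subunit of the histone chaperone that follows the fork, went from 10 ± 0.768 to 0.923 ± 0.46 CPM (-3.44 ± 0.18), and Uhrf1, which carries DNA methylation through replication, from 33.1 ± 0.91 to 4.16 ± 0.203 CPM (-2.99 ± 0.09). Hmgb1, an abundant chromatin protein, rose (0.70 ± 0.05). Nucleotide supply was mixed, with 15 of 29 genes falling (51.7%) and 3 rising. Rrm2, the ribonucleotide reductase subunit that is made in S phase, was at 115, 111 and 113 CPM and then at 3.26, 2.82, 3.23 and 4.5 CPM (log2 fold change -5.03 ± 0.09, adjusted P = 2.2e-27). Tk1, thymidine kinase, fell from 25 ± 2.08 to 1.35 ± 0.361 CPM and Tyms, thymidylate synthase, from 30.1 ± 1.58 to 5.61 ± 0.679 CPM. Mthfd2, a mitochondrial folate enzyme, rose from 274 ± 8.94 to 925 ± 40.3 CPM (1.75 ± 0.07), and Impdh1, of guanine nucleotide synthesis, from 149 ± 5.05 to 432 ± 43.5 CPM (1.53 ± 0.07). Over the 6 lists together, 186 of 229 genes fell and 8 rose, with a median of -1.89, and 188 fell and 7 rose without day 7 replicate 1.

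The promoters of mitotic and replication genes were searched for short elements, among them CHR and E2F sites. All measured members of these lists were searched, including those that did not fall. The part of these elements in the falls was not tested. RefSeq windows (GRCm38.p6) from 250 bases before to 50 bases after the start were matched for 104 of 122 mitotic genes, 45 of 56 replication genes and 9007 of the 11959 genes. The letters TTTGAA, the core of the CHR, were found on either strand in 57 of the 104 mitotic windows (54.8%), in 15.6% of the replication windows and in 11.6% of all windows. CCAAT, the NF-Y element, was in 64.4% of the mitotic windows, 51.1% of the replication windows and 39.7% of all, and it was also in 56% of the windows of fatty acid synthesis and 88.2% of those of cholesterol synthesis. Both motifs together were in 42.3% of the mitotic windows, 6.67% of the replication windows and 5.06% of all. An E2F match (TTTGGCGC, TTTCCCGC or TTTCGCGC on either strand, which may overlap each other) was in 35.6% of the replication windows, 10.6% of the mitotic and 3.85% of all. A match is a description of letters and does not show that a factor was bound. Genes of 1 chromosome were not considered for printing. Of the others, the 4 deepest falls among mitotic genes with both elements in the window from 120 bases before to 20 bases after the start are printed 5′ to 3′ on the gene's strand, with CCAAT and CHR letters in capitals:
Cenpf, chr1:189688067-189688206, minus strand: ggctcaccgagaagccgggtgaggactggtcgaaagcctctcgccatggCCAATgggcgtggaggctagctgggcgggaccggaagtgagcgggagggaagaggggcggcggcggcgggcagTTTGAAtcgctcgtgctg
Kif18b, chr11:102925105-102925244, minus strand: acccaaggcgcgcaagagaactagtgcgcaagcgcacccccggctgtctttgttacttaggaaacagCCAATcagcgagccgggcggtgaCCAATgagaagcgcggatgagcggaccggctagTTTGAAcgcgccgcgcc
Hmmr, chr11:40733418-40733557, minus strand: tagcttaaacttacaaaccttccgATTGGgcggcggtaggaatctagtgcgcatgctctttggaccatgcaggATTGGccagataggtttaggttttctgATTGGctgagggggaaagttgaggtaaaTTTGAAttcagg
Ckap2l, chr2:129297193-129297332, minus strand: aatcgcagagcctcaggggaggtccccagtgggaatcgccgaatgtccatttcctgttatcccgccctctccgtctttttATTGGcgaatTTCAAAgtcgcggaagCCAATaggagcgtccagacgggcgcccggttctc
In Kif18b, Hmmr and Ckap2l there was more than 1 CCAAT, and in Cenpf, Kif18b and Hmmr the CHR letters stood close to the start.

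The replication genes with an E2F match in the same window, again those with the largest falls with the same chromosome left out, are printed with the E2F letters in capitals. In Mcm6, 2 of the 3 matches overlap:
Pole2, chr12:69228171-69228310, minus strand: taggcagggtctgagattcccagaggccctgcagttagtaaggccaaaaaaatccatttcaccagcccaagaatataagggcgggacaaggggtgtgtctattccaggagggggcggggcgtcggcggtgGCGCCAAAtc
Mcm6, chr1:128359686-128359825, minus strand: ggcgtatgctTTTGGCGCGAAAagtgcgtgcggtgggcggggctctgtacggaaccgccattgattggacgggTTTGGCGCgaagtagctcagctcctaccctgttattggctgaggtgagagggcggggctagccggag
Orc1, chr4:108579334-108579473, plus strand: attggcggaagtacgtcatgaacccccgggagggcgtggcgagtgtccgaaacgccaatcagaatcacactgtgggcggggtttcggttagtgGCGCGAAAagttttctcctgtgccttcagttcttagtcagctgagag
Rfc3, chr5:151651189-151651328, minus strand: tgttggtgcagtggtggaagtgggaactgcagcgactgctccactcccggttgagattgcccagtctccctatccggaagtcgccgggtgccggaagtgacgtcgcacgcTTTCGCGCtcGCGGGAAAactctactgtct
The log2 fold changes of these genes were -3.32 for Pole2, -3.02 for Mcm6, -2.48 for Orc1 and -1.42 for Rfc3. Those of the printed mitotic genes were -6.13 for Cenpf, -6.12 for Kif18b, -5.44 for Hmmr and -5.42 for Ckap2l. Both sets were chosen by the size of the fall, so these values do not compare the elements.

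Regulators of G1 phase moved in several directions. Of 34 G1 cyclins, CDKs, inhibitors and E2F and pocket proteins, 17 (50%) fell and 8 (23.5%) rose. Foxm1, the activator of mitotic genes, fell from 38.1 ± 1.59 to 5.58 ± 0.701 CPM (log2 fold change -2.77 ± 0.10, adjusted P = 2.7e-21), Mybl2, which encodes B-MYB, from 5.23 ± 0.74 to 1.9 ± 0.648 CPM (-1.46 ± 0.17), and E2f1, the activating E2F, from 36.5 ± 2.37 to 18.1 ± 3.45 CPM (-1.01 ± 0.08). The repressive E2F genes, which peak in S phase, fell most, E2f8 from 647 to 16 counts (ratio 44.9, 27.5 to 79.1) and E2f7 from 260 to 13 counts (ratio 22.2, 12.8 to 42.3). Ccne1 and Ccne2, the cyclins of S phase entry, fell by 1.71 and 0.95 on the log2 scale. Of the D cyclins, which receive growth signals, Ccnd1 rose from 14.6, 14.8 and 14.9 CPM to 45.3, 30.9, 30.8 and 33.7 CPM (log2 fold change 1.249 ± 0.09, adjusted P = 6e-13), still far below its 223 ± 9.61 CPM at day 0. Ccnd3 rose (0.46 ± 0.07). Ccnd2 fell from 1562, 1566 and 1522 CPM to 1001, 1336, 1293 and 1194 CPM (-0.36 ± 0.06), and that call was lost without day 7 replicate 1 (-0.26). Their partners Cdk4 (-0.45 ± 0.06) and Cdk6 (-1.46 ± 0.10) fell.

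Among inhibitors, Cdkn1a, which encodes p21, was at 194, 184 and 189 CPM at day 2 and at 467, 424, 436 and 439.6 CPM at day 7 (log2 fold change 1.23 ± 0.05, adjusted P = 4e-19). Cdkn2c, which encodes p18, an inhibitor of CDK4 and CDK6, rose from 219, 215 and 224 CPM to 434, 366, 363 and 363 CPM (log2 fold change 0.80 ± 0.06, adjusted P = 3e-13), on top of an earlier climb from 59.9 ± 2.46 CPM at day 0. Libraries of the days did not overlap for either gene. Cdkn1b, which encodes p27, overlapped, at 87.4, 86.8 and 95.7 CPM and 70.7, 90.5, 90.6 and 87.2 CPM. Its log2 fold change was -0.08 ± 0.07 (adjusted P = 0.26) and turned to 0.012 without day 7 replicate 1. The pocket proteins Rb1 (0.44 ± 0.09) and Rbl2 (0.74 ± 0.06) rose, the former with overlapping libraries. Rbl1, the pocket protein of cycling cells, was at 18 ± 1.04 and 15.9 ± 3.69 CPM with no call (-0.17 ± 0.11).

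Growth genes changed less. Myc, the growth factor-induced activator of ribosome production, was at 112, 115 and 117 CPM at day 2 and 61, 59.3, 62.6 and 61.2 CPM at day 7 (log2 fold change -0.91 ± 0.06, adjusted P = 7.6e-15), which was still above its 21.2 ± 2.76 CPM at day 0. Of 66 ribosome biogenesis genes, 9 (13.6%) fell and 9 rose, each below the background. Ncl, nucleolin, fell (-0.49 ± 0.04), as did Gnl3l, a nucleolar GTPase (-0.70 ± 0.07), and Mxd4, an antagonist of MYC, rose from 209.8 ± 1.03 to 376 ± 17.6 CPM (0.84 ± 0.04). Rcl1, of small subunit maturation, also rose (0.72 ± 0.05). Of 75 cytosolic ribosomal protein genes, 22 (29.3%) fell, a share near the background, and none rose, with a median of -0.19. Without day 7 replicate 1, 34 fell and the median was -0.29. The median exon length of this list was 1830 bases, against 4406 over all genes. Rps2 was at 382, 363 and 422 CPM and 286, 188, 186 and 209.9 CPM (-0.84 ± 0.10), and Rpl13a fell by 0.97 on the log2 scale.

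The transcription factors of the adipocyte were already on at day 2, and some rose further. Of 28 measured, 14 (50%) rose and 5 (17.9%) fell. Pparg, the master regulator, rose from 165, 166 and 170 CPM to 516, 465, 473 and 481 CPM (log2 fold change 1.54 ± 0.05, adjusted P = 4.1e-21), after 53.4 ± 2.58 CPM at day 0. Cebpa, its partner, rose less, from 336, 331 and 375 CPM to 549, 412, 406 and 479 CPM (log2 fold change 0.41 ± 0.08, adjusted P = 2.2e-05). Neither set of libraries overlapped. Klf15, a glucocorticoid-induced activator of adipocyte metabolism, showed the steepest rise of the list, at 7.42, 7.7 and 7.98 CPM and then 146, 128, 132 and 127 CPM (log2 fold change 4.12 ± 0.09, adjusted P = 6.5e-26), from 0.51 ± 0.0986 CPM at day 0. Zfp467 returned from 6.21 ± 1.36 CPM to 19.5 ± 2.7 CPM (1.66 ± 0.11), close to its 19.3 ± 2 CPM at day 0 (day 7 against day 0 0.02, adjusted P = 0.88).

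The early factors that precede them did not move together. Cebpb was at 93.6, 103 and 130 CPM and 195, 109, 118 and 161 CPM with overlap (0.42 ± 0.16), and its call was lost without day 2 replicate 1, day 2 replicate 2 or day 7 replicate 1 (0.27 to 0.39). Cebpd was not called (0.27 ± 0.11). It passed the threshold without day 2 replicate 3, day 7 replicate 2 or day 7 replicate 3 (0.35 to 0.37). Srebf1, the activator of lipogenic genes, lay at 164 ± 4.38 and 133 ± 13.5 CPM and missed the fold threshold (-0.31 ± 0.06), which it crossed when day 2 replicate 1 or any of day 7 replicates 2, 3 and 4 was left out (-0.32 to -0.34). Klf5, an early inducer of Pparg, fell from 43.7 ± 3.79 to 10.9 ± 1.53 CPM (-2.0 ± 0.08), and Ppargc1a, the coactivator of mitochondrial and thermogenic genes, from 35.6, 36.1 and 33.6 CPM to 5.88, 9.07, 7.3 and 6.96 CPM (log2 fold change -2.26 ± 0.12, adjusted P = 2e-16). Nr3c1, the glucocorticoid receptor, was at 118 ± 3.09 and 109 ± 16.8 CPM with no call (-0.11 ± 0.07, 0.0079 without day 7 replicate 1).

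Preadipocyte genes and brakes on adipogenesis were divided, with 10 of 29 rising (34.5%) and 12 falling (41.4%). Pdgfra, a receptor of adipocyte precursors, fell from 482 ± 6.31 to 176 ± 20.9 CPM (-1.46 ± 0.07), and Pdgfrb by 0.63 on the log2 scale. Dlk1, the preadipocyte factor, had fallen from 2572 ± 98.2 CPM at day 0 to 162 ± 4.58 CPM by day 2 and was at 249, 156, 170.4 and 233 CPM at day 7 (0.32 ± 0.09). That small rise overlapped with day 2 and was not called when day 2 replicate 1 or 2, or day 7 replicate 1 or 4, was left out (0.23 to 0.31). Gata2, which holds preadipocytes back, came up from 1.12, 1.31 and 0.716 CPM to 7.62, 8.06, 8.33 and 7.84 CPM (log2 fold change 2.89 ± 0.17, adjusted P = 1.7e-15), and remained below its 19 ± 0.597 CPM at day 0. Ly6c1 rose from 2.54 ± 0.212 to 13.4 ± 2.31 CPM, close to its 13 ± 2.6 CPM at day 0. Thy1 and Ly6a, surface markers of stromal precursors, rose (0.88 ± 0.15 and 0.65 ± 0.14) while staying below day 0. Id4, an inhibitor of helix-loop-helix factors, fell (-1.49 ± 0.26).

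**Figure D3:**
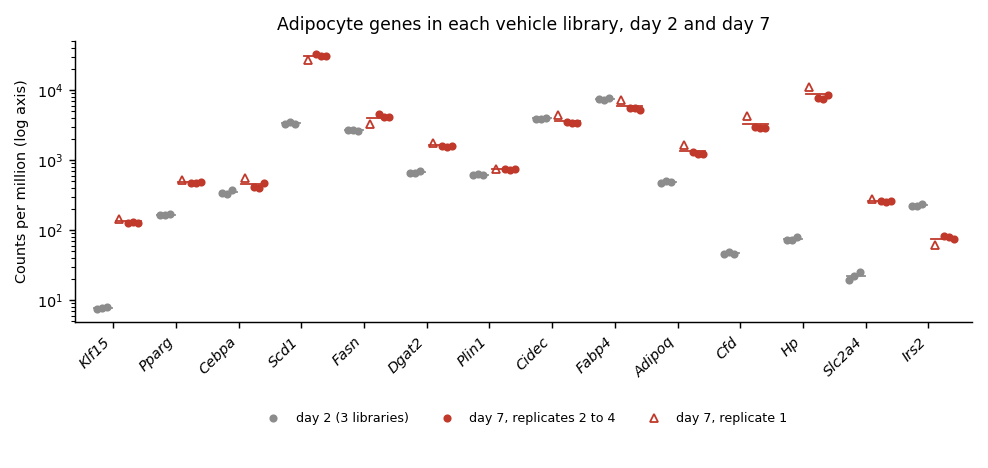
CPM of 14 adipocyte genes in each vehicle library (vertical axis, logarithmic), with symbols as in the plot of cell cycle genes. Cfd and Hp climb from 46.9 and 75.1 CPM at day 2 to 3267 and 8689 CPM at day 7, whereas Cidec and Fabp4 overlap between the days and Irs2 falls.

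Of 28 fatty acid synthesis genes, 18 (64.3%) rose and 2 fell, with a median of 0.69. Scd1, the desaturase that makes oleate, was among the most abundant transcripts at day 7, at 3246, 3488 and 3294 CPM and then 27320, 33300, 30540 and 30660 CPM (log2 fold change 3.19 ± 0.07, adjusted P = 2.5e-25). Thrsp, a lipogenic regulator, rose from 103 ± 6.47 to 722 ± 109.7 CPM (2.81 ± 0.10), Acly, which supplies acetyl-CoA, from 297, 298 and 295 CPM to 556, 606, 582 and 609 CPM (log2 fold change 0.99 ± 0.09, adjusted P = 2.6e-11), and Fasn, fatty acid synthase, from 2700, 2726 and 2594 CPM to 3329, 4578, 4171 and 4089 CPM (log2 fold change 0.60 ± 0.09, adjusted P = 3.4e-07). Acaca, acetyl-CoA carboxylase, was not called (0.28 ± 0.08), but was called without day 2 replicate 2 (0.33) or day 7 replicate 1 (0.38). The 2 that fell were Elovl6, an elongase, from 32.6 ± 1.98 to 5.82 ± 0.868 CPM (-2.48 ± 0.10), and Acsl1, the main acyl-CoA synthetase of adipocytes, from 6600, 6594 and 6705 CPM to 3770, 3972, 3912 and 3798 CPM (log2 fold change -0.78 ± 0.05, adjusted P = 2.4e-14).

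In triglyceride synthesis, 12 of 22 genes rose (54.5%) and 3 fell. The last step gained, with Dgat2 going from 648, 664 and 704 CPM to 1737, 1571, 1566 and 1611 CPM (log2 fold change 1.27 ± 0.07, adjusted P = 1.3e-15) and Dgat1 rising by 0.45 ± 0.06. In the first steps isoenzymes went opposite ways. Gpam, the mitochondrial acyltransferase, rose from 187 ± 4.06 to 379.7 ± 51.4 CPM (1.02 ± 0.07), whereas Gpat3, its counterpart in the endoplasmic reticulum, fell from 341, 324 and 352 CPM to 106, 111, 111 and 92.9 CPM (log2 fold change -1.69 ± 0.07, adjusted P = 1.8e-19), and Agpat2, the next enzyme, fell (-0.58 ± 0.07). Of the phosphatidate phosphatases, Lpin1 rose (0.92 ± 0.06), and Lpin3 rose from 0.9, 1.1 and 0.921 CPM to 20.2, 21.1, 21.2 and 19.7 CPM (log2 fold change 4.38 ± 0.13, adjusted P = 1.4e-22). Bscl2, which encodes seipin, rose (1.35 ± 0.08). Pck1, of glyceroneogenesis, rose from 10.9 ± 0.491 to 25.5 ± 1.86 CPM (1.23 ± 0.23). Gpd1, which makes glycerol phosphate, rose from 747 ± 16.7 to 1451 ± 105 CPM (0.96 ± 0.09).

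Several genes of the droplet coat were near their day 7 level at day 2. Plin1, the perilipin of adipocytes, had gone from 0.314 ± 0.129 CPM at day 0 to 609.6, 628 and 614 CPM at day 2, and its 749, 754, 728 and 751 CPM at day 7 did not reach the fold threshold (0.27 ± 0.06). Cidec, which enlarges droplets, was at 3919, 3930 and 3950 CPM and 4385, 3489, 3433 and 3412 CPM (-0.10 ± 0.08, adjusted P = 0.28). For Cidec, day 7 replicate 1 alone lay above the day 2 libraries, and the other day 7 libraries lay below them. Plin2, the ubiquitous perilipin, was not called (0.13 ± 0.05, 0.074 without day 7 replicate 1 and -0.00074 under quantile normalization), and Plin4 rose (0.38 ± 0.05). For lipolysis, Pnpla2, which encodes the first lipase, rose (0.42 ± 0.05), Mgll, the last, rose from 14 ± 0.943 to 26.5 ± 3.39 CPM (0.92 ± 0.11), and Lipe (0.26 ± 0.04), G0s2 (-0.24 ± 0.10) and Abhd5 (-0.18 ± 0.05) stayed under the fold threshold. Abhd15 (-0.59 ± 0.07), a brake on lipolysis, and Prkar2b (-0.61 ± 0.05), a regulatory subunit of protein kinase A, fell. Lipa, the lysosomal acid lipase, rose (1.67 ± 0.05). Of the 25 genes of this list, 12 (48%) rose and 2 fell.

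Of the genes above the median level, the largest rises included several secreted proteins. Of 26 adipokines and secreted proteins, 17 (65.4%) rose and 5 (19.2%) fell. Hp, haptoglobin, was at 73.2, 71.5 and 80.7 CPM at day 2 and at 11030, 7754, 7389 and 8581 CPM at day 7, a ratio of 116 (log2 fold change 6.85 ± 0.14, adjusted P = 1.7e-26). Cfd, which encodes adipsin, went from 46.1, 49.1 and 45.5 CPM to 4274, 2968, 2908 and 2918 CPM (log2 fold change 6.12 ± 0.12, adjusted P = 7.3e-27). For both genes replicate 1 gave the highest day 7 value, and without it the log2 fold changes were 6.74 and 5.98. Adipoq, adiponectin, came on sooner and gained less, from 0.283 ± 0.11 CPM at day 0 and 14.6 ± 2.1 CPM at day 1 to 477, 510.2 and 491 CPM at day 2 and 1620, 1286, 1225 and 1228 CPM at day 7 (log2 fold change 1.44 ± 0.08, adjusted P = 7.3e-16). Retn, resistin, rose by 1.47 ± 0.10. Outside the list, Rarres2, which encodes chemerin, rose from 13.9, 15.3 and 14.6 CPM to 427, 303, 289.5 and 329.6 CPM (log2 fold change 4.53 ± 0.12, adjusted P = 3.8e-24), Enpp2, which encodes autotaxin, from 96.5 ± 3.05 to 1020 ± 62.9 CPM (3.40 ± 0.07), and Tcn2, a vitamin B12 carrier, from 26.4 ± 1.46 to 238 ± 16.9 CPM (3.18 ± 0.07). Cxcl12, a chemokine of stromal cells, fell from 655 ± 22.3 to 179 ± 19.2 CPM (-1.87 ± 0.06). Rbp4, retinol-binding protein, was low and not called (3.82 ± 0.416 and 4.9 ± 1.1 CPM).

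Fatty acid and glucose uptake and insulin signalling gave 10 risers and 10 fallers among 30 genes (33.3% each). Slc2a4, the insulin-responsive glucose transporter GLUT4, was at 19.1, 21.9 and 25.1 CPM and then at 279, 261, 249.7 and 258 CPM (log2 fold change 3.57 ± 0.09, adjusted P = 4.3e-24), after 0.197 ± 0.0384 CPM at day 0. Trarg1, a GLUT4 trafficking protein, rose from 8.1, 9.54 and 10.2 CPM to 78.7, 81.7, 77.6 and 84.8 CPM (log2 fold change 3.12 ± 0.09, adjusted P = 1e-23). Of the signalling genes, Irs2, an insulin receptor substrate, fell from 221, 221 and 236 CPM to 60.6, 82.5, 80.5 and 75.7 CPM (log2 fold change -1.59 ± 0.07, adjusted P = 1.1e-18), Lrp1, a lipoprotein receptor, fell (-1.63 ± 0.11), and Insr, the receptor, was not called (0.10 ± 0.10), with values from 0.0092 without day 7 replicate 2 to 0.253 without day 7 replicate 1 and below 0 under quantile and total count scaling. Cd36, the fatty acid translocase, rose (0.47 ± 0.06). Fabp4, the adipocyte fatty acid-binding protein, fell with overlapping libraries, 7503, 7170 and 7798 CPM against 7279, 5629, 5484 and 5200 CPM (-0.34 ± 0.08), and was not called without day 2 replicate 3, day 7 replicate 3 or day 7 replicate 4 (-0.29 to -0.31). Lpl, lipoprotein lipase, was at 9693 ± 178 and 11540 ± 364 CPM and under the fold threshold (0.25 ± 0.04). Under quantile normalization its value was -0.35, which would be called as a fall.

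Cholesterol synthesis rose in 12 of 24 genes (50%) and fell in 2. Sqle, squalene epoxidase, rose from 150.5, 149 and 155 CPM to 252, 248, 223 and 223 CPM (log2 fold change 0.64 ± 0.06, adjusted P = 6.7e-11). Pmvk, of the mevalonate steps, rose from 33 ± 2.75 to 100.5 ± 19.3 CPM (1.61 ± 0.11), and Tm7sf2, a sterol reductase, rose (1.23 ± 0.09). Hmgcs1, also of the mevalonate steps, was under the fold threshold (-0.24 ± 0.06). Dhcr7, of the last step, fell from 180.1 ± 9.83 to 85.6 ± 6.5 CPM (-1.07 ± 0.06), and Stard4, a sterol carrier, fell (-0.47 ± 0.10).

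In the breakdown of branched-chain amino acids, which feeds acetyl-CoA and propionyl-CoA to adipocytes, 24 of 26 genes (92.3%) rose and none fell, with a median of 1.18 and of 1.09 without day 7 replicate 1. Bcat2, the transaminase of the first step, rose from 291, 292 and 287 CPM to 1463, 1133, 1141 and 1153 CPM (log2 fold change 2.08 ± 0.08, adjusted P = 4.1e-20), and Bckdha, of the dehydrogenase that commits the carbon, from 93.6, 91.8 and 89.4 CPM to 567, 454, 464 and 476 CPM (log2 fold change 2.42 ± 0.06, adjusted P = 5.7e-24). Pccb, which carboxylates propionyl-CoA, rose from 29.6, 32 and 33.2 CPM to 163, 161, 154 and 150.2 CPM (log2 fold change 2.31 ± 0.05, adjusted P = 1.3e-25). None of these libraries overlapped between the days.

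Fatty acid oxidation rose in 26 of 34 genes (76.5%) and fell in 3, with a median of 0.67. Acadm, the medium-chain dehydrogenase, went from 288, 299 and 290.4 CPM to 881, 810.2, 808 and 761 CPM (log2 fold change 1.48 ± 0.05, adjusted P = 6.8e-21), Acadvl, the very-long-chain enzyme, rose by 0.60 ± 0.05, Cpt2 by 0.52 ± 0.06, and Acot2, a mitochondrial thioesterase, by 2.56 ± 0.09. Pdk1, which restrains pyruvate entry, rose from 126 ± 4.55 to 406 ± 16 CPM (1.69 ± 0.10). The carnitine palmitoyltransferase that controls entry of fatty acids went the other way. Cpt1a fell from 66.7, 62.8 and 60.4 CPM to 30.5, 34.6, 33.9 and 33.3 CPM (log2 fold change -0.94 ± 0.07, adjusted P = 3.2e-13), continuing from 205 ± 7.49 CPM at day 0, and Cpt1c fell (-1.68 ± 0.14).

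Of 32 genes of pyruvate entry and the TCA cycle, 12 (37.5%) rose and 6 (18.8%) fell. Sdha, of succinate dehydrogenase, rose from 384, 388 and 405 CPM to 789, 770.3, 761 and 748 CPM (log2 fold change 0.97 ± 0.04, adjusted P = 5.7e-20), as did Idh3g (1.14 ± 0.06) and Pdp2, which activates pyruvate dehydrogenase (1.05 ± 0.07). Idh3a, the catalytic subunit that works with Idh3g, fell (-0.54 ± 0.04), and Got2, an aminotransferase of the malate shuttle, fell from 155 ± 6.34 to 59.7 ± 3.13 CPM (-1.38 ± 0.04). Cs, citrate synthase, just missed the fold threshold (0.31 ± 0.04) and passed it without day 7 replicate 1 (0.33). In the respiratory chain, 28 of 37 complex I genes (75.7%) rose and none fell, and 20 of 37 genes of complexes III, IV and V (54.1%) rose and 2 fell. Without day 7 replicate 1 these numbers were 23 and 13, and the medians went from 0.51 to 0.39 and from 0.33 to 0.22. Their median exon lengths were 1569 and 1756 bases. Ndufs1, a subunit of complex I, rose from 254, 254 and 253 CPM to 424, 421, 417 and 380.4 CPM (log2 fold change 0.69 ± 0.04, adjusted P = 1e-14, 0.70 without replicate 1). Cox4i1 rose by 0.45 ± 0.07 and by 0.35 without it, Atp5b by 0.47 ± 0.05 and 0.43, Ndufs3 by 0.99 ± 0.07 and 0.91, and Uqcrq by 0.83 ± 0.09 and 0.68. Ndufb9 (0.97 ± 0.10) and Cox8a (0.80 ± 0.08) were the other named risers.

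Some mitochondrial genes fell. Atp5g1, which encodes the same c-ring peptide of ATP synthase as sister genes, fell (-0.81 ± 0.08), as did the nucleotide carriers Slc25a5 (-0.39 ± 0.05) and Slc25a4 (-0.32 ± 0.05). The last of these calls was lost when any of day 2 replicates 1 and 3 and day 7 replicates 2, 3 and 4 was left out (-0.29 to -0.31). Atpif1, an inhibitor of ATP synthase, also fell (-0.32 ± 0.09) and was not called without day 2 replicate 2 or 3 or day 7 replicate 2, 3 or 4 (-0.27 to -0.32). Ppif, cyclophilin D, was not called (-0.30 ± 0.08), but was without day 7 replicate 1 (-0.39), under total count scaling (-0.42) and under quantile normalization (-0.32). Of 77 mitochondrial ribosomal protein genes, 29 (37.7%) rose and 5 fell, and 23 rose without replicate 1. Mrps28 rose by 1.13 ± 0.12 and Mrpl54 by 0.93 ± 0.11, while Mrps25 fell by 0.73 and Mrps6 by 0.68 on the log2 scale. Of 7 genes encoded by mitochondrial DNA, mt-Nd4 rose (0.73 ± 0.07). mt-Nd6 rose (0.33 ± 0.11) and lost its call without day 2 replicate 1 or 2 or day 7 replicate 2 or 3 (0.25 to 0.32). mt-Co1 was at 14900 ± 532 and 16840 ± 403 CPM (0.18 ± 0.05), with a value of -0.52 under quantile normalization.

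**Figure D4:**
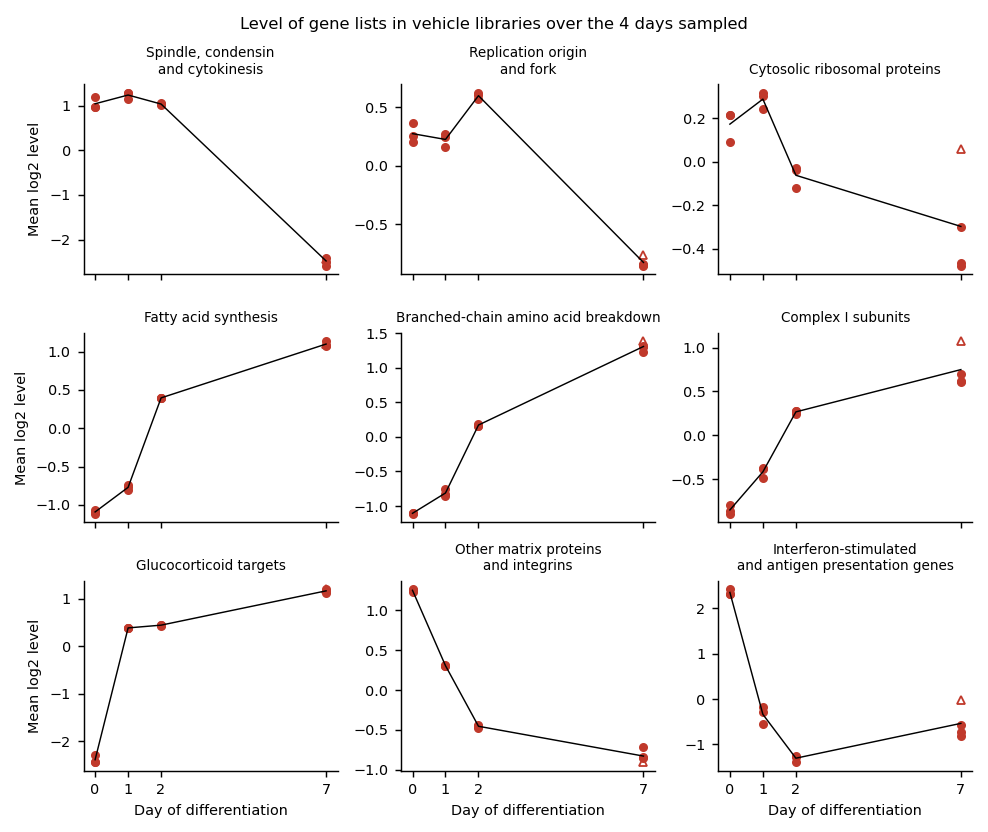
Mean log2 level of 9 gene lists in each vehicle library (vertical axes, each gene centred on its mean over these libraries, so that levels compare days and not lists) against the day of differentiation (horizontal axis, to scale). Points are libraries, the open triangle is day 7 replicate 1 and lines join day means. Spindle genes are high at days 0, 1 and 2 and low at day 7, fatty acid synthesis climbs at each day, and for ribosomal and complex I genes the triangle lies above the other day 7 points.

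Matrix genes of the fibroblast fell more often than they rose. Of 36 collagen and collagen-processing genes, 19 (52.8%) fell and 7 (19.4%) rose, and of 37 other matrix proteins and integrins, 20 (54.1%) fell and 8 (21.6%) rose. Without day 7 replicate 1, 22 of the former fell and 7 rose, and 19 of the latter fell and 9 rose. The median exon lengths of these lists were 6591 and 6370 bases, against 4406 over all genes. Col4a1, of the basement membrane, which adipocytes lay down as they differentiate, had been at 3829 ± 106 CPM at day 0 and fell from 7271, 7334 and 7200 CPM to 2653, 2694, 2632 and 2766 CPM (log2 fold change -1.44 ± 0.05, adjusted P = 2.9e-21). Fn1, fibronectin, was at 15500 ± 976 CPM at day 0, 2238 ± 99.6 CPM at day 2 and 969.7 ± 110.5 CPM at day 7 (log2 fold change -1.21 ± 0.07, adjusted P = 3.4e-15). Col6a3 (-0.92 ± 0.08), Col12a1 (-2.02 ± 0.09), Fbn1 (-2.21 ± 0.09), Tnc (-2.68 ± 0.13) and Col3a1 (-0.52 ± 0.06) fell. Col1a1, the main fibrillar collagen, had lost most of its level by day 2 (10700 ± 359 CPM at day 0, 893 ± 35.9 CPM at day 2) and was not called between day 2 and day 7 (-0.24 ± 0.09). It was called without day 7 replicate 1 (-0.34), under total count scaling (-0.36) and under quantile normalization (-0.39). Mmp13, a collagenase, fell from 83.2, 77.6 and 76.8 CPM to 0.931, 1.86, 1.57 and 2.25 CPM (log2 fold change -5.57 ± 0.19, adjusted P = 1.1e-21), although it stands outside both lists. Plod2, which hydroxylates collagen lysines, fell (-2.08 ± 0.07).

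Other matrix genes rose. Lox, which cross-links collagen, was at 191, 192 and 199 CPM and then at 710.4, 791, 749 and 855 CPM (log2 fold change 2.0 ± 0.06, adjusted P = 2.1e-22), against 1849 ± 111 CPM at day 0. Sparcl1, a matricellular protein, had dropped from 339 ± 20.5 CPM at day 0 to 23, 25.8 and 23.7 CPM at day 2 and came back to 362, 386, 366 and 364 CPM (log2 fold change 3.93 ± 0.08, adjusted P = 5.3e-27), with no call between day 7 and day 0 (0.12, adjusted P = 0.06). Papss2, of sulfate donor synthesis, dipped and rose in the same way (62.1 ± 3.31, 11.7 ± 1.62 and 96.4 ± 4.42 CPM at days 0, 2 and 7), and so did Plekha6 (52.1 ± 5.79, 5.87 ± 0.54 and 49.2 ± 9.22 CPM). Itga7 (1.49 ± 0.05), a laminin receptor, and Itga1 (1.93 ± 0.21), a collagen receptor, rose. Pcolce2 had 23 and 78 counts, a ratio of 3.05 (1.90 to 5.09).

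Contractile and actin genes split, with 15 of 35 rising (42.9%) and 10 falling (28.6%). Acta2, smooth muscle actin, had gone from 535 ± 53.8 CPM at day 0 to 1.35, 1.35 and 1.53 CPM at day 2 and was at 16.1, 5.69, 7.15 and 5.97 CPM at day 7 (log2 fold change 2.62 ± 0.33, adjusted P = 3.2e-08), highest in replicate 1. Des, desmin, rose from 3.64, 3.56 and 3.48 CPM to 50.9, 40.6, 41.7 and 42.4 CPM (log2 fold change 3.62 ± 0.11, adjusted P = 2e-22). Lmod1 rose from 12 to 173 counts (ratio 13, 7.24 to 25.6) and Tagln from 42 to 91 counts (ratio 1.95, 1.34 to 2.88). Actn1 (-0.97 ± 0.05) and Tagln2 (-1.33 ± 0.06), of the stress fibres of spread cells, fell. Thbs1, thrombospondin, was not called (-0.11 ± 0.10).

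Of the 10 largest falls among genes above the median level, those outside the proliferation lists included Mmp13, described above, and Edil3, an integrin ligand. The level of Edil3 went from 61, 56.4 and 64 CPM to 2.85, 4, 4.12 and 4.88 CPM (log2 fold change -3.92 ± 0.11, adjusted P = 4.3e-23). Gem, a small GTPase induced by cyclic AMP, fell from 57.7 ± 4.99 to 6.3 ± 0.236 CPM (-3.19 ± 0.08), Gxylt2, a xylosyltransferase, from 136 ± 4.55 to 14.9 ± 1.48 CPM (-3.19 ± 0.08), Amot, angiomotin, from 139 ± 7.07 to 17.6 ± 2.53 CPM (-2.98 ± 0.07), and Basp1 from 102 ± 8 to 13.5 ± 2.38 CPM (-2.93 ± 0.09).

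Targets of the inducing agents went in different directions. Isobutylmethylxanthine, which keeps cyclic AMP high, was in the medium up to day 2 only, and of 20 early cyclic AMP targets 10 (50%) fell and 5 (25%) rose. Nr4a1 fell from 37.9, 33.6 and 37.6 CPM to 18.6, 17.5, 16.9 and 17.1 CPM (log2 fold change -1.05 ± 0.08, adjusted P = 2e-13), whereas Dusp1, a phosphatase that glucocorticoids also induce, rose from 21.4 ± 0.833 to 58.5 ± 5.52 CPM (1.45 ± 0.08), Rgs2 rose (1.04 ± 0.07) and Crem rose (0.47 ± 0.13). Dexamethasone was present in both media, and of 23 glucocorticoid targets 16 (69.6%) rose and 2 fell, with a median of 0.64. Fkbp5, the classical target, was at 1196, 1245 and 1214 CPM and 2111, 2072, 2143 and 2157 CPM (log2 fold change 0.80 ± 0.04, adjusted P = 1.7e-18), after 144 ± 4.97 CPM at day 0. Tsc22d3, which encodes GILZ, rose (0.41 ± 0.05), Hsd11b1, which regenerates active glucocorticoid, rose from 33.4 ± 1.88 to 179.9 ± 20.6 CPM (2.43 ± 0.09), and Sult1a1 rose by 2.44 ± 0.09. Sgk1, a kinase induced by glucocorticoids and serum, fell (-1.02 ± 0.04), and Sesn1 fell (-0.40 ± 0.05).

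Clock genes rose in 17 of 19 cases (89.5%), with none falling and a median of 0.64. Dbp, an output gene of the clock, was at 12.3, 14.2 and 12 CPM and 33.4, 23.7, 24.7 and 27.3 CPM (log2 fold change 1.08 ± 0.10, adjusted P = 2.1e-11), close to its 27.2 ± 0.346 CPM at day 0. Per1, a repressor that glucocorticoids induce, rose (0.64 ± 0.06). The hour of collection is not given in the sources used here, so the phase of a rhythm and its level cannot be told apart.

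Glycolytic and hypoxia-responsive genes rose in 23 of 32 cases (71.9%) and fell in 5, with a median of 0.87. Ndrg1, a hypoxia- and differentiation-induced gene, rose from 12.7, 14.4 and 13.6 CPM to 174, 196, 198 and 205 CPM (log2 fold change 3.83 ± 0.10, adjusted P = 1.5e-24), and Car12, a carbonic anhydrase, from 0.99, 0.737 and 1.38 CPM to 15.1, 17.1, 17.4 and 17.2 CPM (log2 fold change 4.03 ± 0.21, adjusted P = 4.2e-17). Pfkfb3, an activator of glycolysis, fell from 301 ± 8.09 to 137 ± 9.73 CPM (-1.14 ± 0.06), and Eno2 fell (-1.38 ± 0.14). Of 31 genes of the integrated stress response and the endoplasmic reticulum, 17 (54.8%) rose and 3 fell. Herpud1, of protein degradation in the endoplasmic reticulum, rose from 32.3, 29.2 and 29.8 CPM to 166, 169, 177 and 159 CPM (log2 fold change 2.46 ± 0.07, adjusted P = 4.8e-24), and Sdf2l1, a chaperone cofactor, rose (1.38 ± 0.13). Sesn2 (-1.0 ± 0.08) and Slc7a11, the cystine transporter (-1.06 ± 0.21), fell.

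Antioxidant and glutathione genes rose in 22 of 39 cases (56.4%) and fell in 4, with 18 rising without day 7 replicate 1. Gstz1, which isomerises maleylacetoacetate, rose from 84.9, 84.2 and 84.3 CPM to 732, 565, 565 and 595 CPM (log2 fold change 2.86 ± 0.08, adjusted P = 5.1e-24), and Gstm1, a glutathione transferase with close paralogs, from 28 ± 0.739 to 179.7 ± 18.1 CPM (2.68 ± 0.07). Gpx8, a peroxidase of the endoplasmic reticulum, fell (-0.82 ± 0.10). Lysosome and autophagy genes gave 17 risers (36.2%) and 11 fallers (23.4%) among 47. Map1lc3a, an LC3 gene, rose (1.45 ± 0.09), Psap, the saposin precursor, fell from 3359, 3258 and 3230 CPM to 1379, 1259, 1244 and 1335 CPM (log2 fold change -1.33 ± 0.04, adjusted P = 1.1e-21), and Ctsh, a cathepsin, had 181 and 55 counts (day 2 over day 7 ratio 3.66, 2.69 to 5.04).

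Interferon-stimulated and antigen presentation genes rose in 18 of 33 cases (54.5%) and fell in 4, with a median of 0.67. Day 7 replicate 1 stood apart here, with a mean level of the list, on the log2 scale centred over the vehicle libraries, of -0.024 against -0.81 to -0.57 in the other day 7 libraries, and all day 2 libraries were lower (-1.38 to -1.246). Without it 17 genes rose and 4 fell, with a median of 0.56. Against day 0, which shares the day 7 libraries with this comparison, 27 of the 33 fell and 2 rose (all genes, 36.7% each way). Isg20, an exonuclease, rose from 1.62, 1.39 and 1.89 CPM to 52.5, 43, 39.7 and 48.2 CPM (log2 fold change 4.82 ± 0.15, adjusted P = 1.7e-22, 4.77 without day 7 replicate 1), and Gbp2, a GTPase, from 2.52, 1.43 and 0.972 CPM to 10.7, 7.5, 8.92 and 6.85 CPM (2.35 ± 0.18, 2.25 without it), below its 38.5 ± 0.536 CPM at day 0. Ifitm3 fell (-0.75 ± 0.13). Ifi44 was scattered at day 7 (1.75, 0.169, 0.196 and 0.603 CPM after 1.57, 1.68 and 1.13 CPM at day 2), and its fall (-1.17 ± 0.42) was not called without day 2 replicate 2, day 7 replicate 2 or day 7 replicate 3 (-0.83 to -1.05). Without day 7 replicate 1 its value was -2.17.

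The labelled cell type was checked with defining markers. Adipocyte markers Adipoq, Plin1, Cidec, Lipe, Fabp4, Pparg and Cebpa were present in all 7 libraries. Of the markers of other cells, most were not among the genes of the table. Those measured were 2 of 14 for macrophages, 1 of 13 for endothelium, 1 of 14 for skeletal muscle, 4 of 15 for bone and cartilage and 3 of 15 for brown adipocytes. The macrophage genes were Cd68 (1.59 ± 0.226 and 2.43 ± 0.346 CPM, 0.60 ± 0.19) and Cd14, the endothelial gene was Flt1 (0.79 ± 0.12) and the muscle gene Des. Cd14 rose (0.44 ± 0.17) and lost the call without day 2 replicate 2 or 3 or day 7 replicate 1 (0.30 to 0.44). Of the brown adipocyte genes, Kcnk3 (1.78 ± 0.07) and Pdk4 (0.42 ± 0.07) rose and Ppargc1a fell. Runx2, a bone regulator also made by preadipocytes, fell (-0.98 ± 0.09), and Spp1, osteopontin, fell (-0.49 ± 0.08) after a drop from 1292 ± 68.8 CPM at day 0. The other 2 bone and cartilage genes measured were not called, and 1 of them had a positive value (0.48).

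The demethylases that the study inhibited elsewhere were transcribed at both days in these vehicle cells. Kdm5a was at 177, 178 and 173 CPM and 115, 185, 176 and 167 CPM (-0.13 ± 0.09, 0.016 without day 7 replicate 1), Kdm5b at 107 ± 3.7 and 95.5 ± 5.22 CPM (-0.16 ± 0.05) and Kdm5c at 192 ± 6.25 and 162 ± 21.3 CPM (-0.24 ± 0.07), and none was called. Day 7 replicate 1 was also lowest for Kdm5c, at 130.5 CPM against 170.9 to 175.1 CPM in the other day 7 libraries. Of 20 KDM5 and other H3K4 enzyme genes, 1 (5%) rose and 4 (20%) fell, 3 without day 7 replicate 1. The methyltransferases Kmt2d (-0.56 ± 0.13) and Kmt2a (-0.50 ± 0.12) fell, and the rise of Setd1b (0.36 ± 0.10) was not called without day 7 replicate 2 or 3 (0.29 for each). The genes of this list are long, with a median exon length of 9076.5 bases, and their level was lowest in replicate 1.

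The same interval was then set beside cells that had received C70 before induction, with a test of the difference between the 2 changes. A difference was called by the same thresholds, and counts of positive and negative differences are of called ones only. This difference was called positive in 1423 genes (11.9%) and negative in 1081 (9.04%). With total count scaling the numbers were 1104 and 1394. Of the 229 proliferation genes, the difference was called positive in 99 and negative in none, and the others were not called. These counts were 84 and 4 with total count scaling, and 95 and 3 without day 7 replicate 1. The day 2 levels of Mki67 and Top2a differed between the groups. The part of the starting level in the differences of the list was not tested. Mki67 was at 113 ± 3.14 CPM in vehicle cells at day 2 and at 66.5 ± 3.46 CPM after C70, and at day 7 at 2.18 ± 0.296 and 1.92 ± 0.765 CPM, so that the fall was smaller after C70 (-5.09 against -5.70, difference 0.61 ± 0.21, adjusted P = 0.03). For Top2a the day 2 levels were 128 ± 1.34 and 87.9 ± 2.63 CPM and those of day 7 3.23 ± 0.476 and 3.66 ± 1.12 CPM (difference 0.75 ± 0.19, adjusted P = 0.003). Cdk1 fell by 2.62 in vehicle cells and had a change of -1.55 after C70 (difference 1.07 ± 0.16, adjusted P = 3.6e-06). For Ccna2 the difference was not called (0.40 ± 0.37, adjusted P = 0.45).

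**Figure D5:**
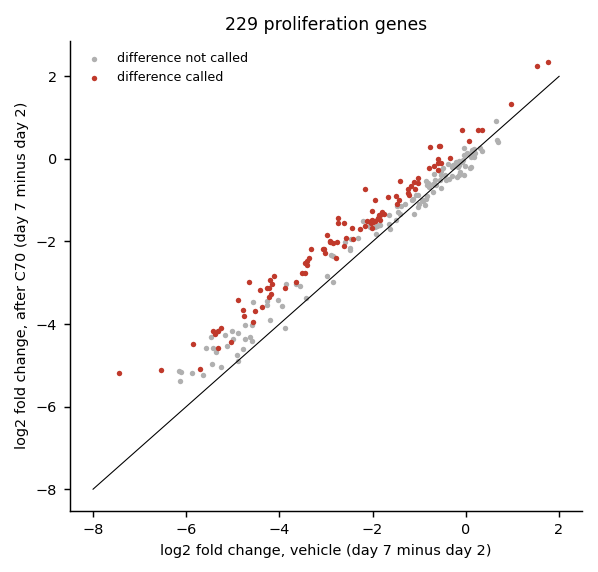
Log2 fold change from day 2 to day 7 of the 229 proliferation genes in vehicle cells (horizontal axis) and in cells given C70 before induction (vertical axis). Each point is a gene, red where the difference between the changes was called, and the line marks equal change. The 99 red points all lie above the line.

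Among genes above the median level, the largest positive differences were those of Gpd1, Adipoq and Acsl1. Gpd1 rose by 0.96 in vehicle cells (747 ± 16.7 to 1451 ± 105 CPM) and changed by 3.08 after C70 (184 ± 28.3 to 1554 ± 66.5 CPM), a difference of 2.12 ± 0.12 (adjusted P = 1.4e-14). Adipoq went from 265 ± 25.5 to 1704 ± 76.8 CPM after C70 (difference 1.24 ± 0.11, adjusted P = 3.4e-10), and Acsl1, which fell in vehicle cells, from 3171 ± 115 to 4322 ± 143 CPM (difference 1.23 ± 0.07, adjusted P = 5.4e-14). In the opposite direction, Aqp1, a water channel, rose in vehicle cells from 17.8 ± 1.98 to 27.8 ± 4.99 CPM and went from 260 ± 19.9 to 63 ± 12.7 CPM after C70 (difference -2.69 ± 0.17, adjusted P = 4e-13). Ndrg1 went from 21.7 ± 0.618 to 65 ± 10.8 CPM (difference -2.24 ± 0.13, adjusted P = 3.5e-14), and Spp1 from 324 ± 4.61 to 49.1 ± 3.82 CPM (difference -2.24 ± 0.10, adjusted P = 2.7e-16). Of called differences, cholesterol synthesis had 17 positive among 24 genes and none negative. Fatty acid synthesis had 20 positive and 1 negative among 28 (17 and 3 with total count scaling), and complex I 1 positive among 37. Lists with more negative differences included lysosome and autophagy genes (3 positive and 21 negative among 47) and early cyclic AMP targets (1 and 11 among 20). They also included interferon-stimulated and antigen presentation genes (1 and 11 among 33) and ribosome biogenesis genes (1 and 11 among 66).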

How the data were processed

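RNA from 3T3-L1 cells was sequenced by the authors from strand-specific libraries. Per the labels and methods, reads were aligned with STAR 2.7.2a to GRCm38 with the Ensembl annotation, and the submitters' processing notes name edgeR 3.26.8. The counting program and its strand setting and the filter that left 11959 genes are not given in the sources used here. The deposited table is described as normalized but holds whole-number counts per gene that differ in total between libraries (16320275 to 24037170 over the 29), so it was treated as raw counts. Genes overlapping on opposite strands are uncertain for this reason.

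Counts were scaled by trimmed means of M values, and a quasi-likelihood model with a mean for each of 8 groups was fitted to all 29 libraries (edgeR 4.0.16, R 4.3.3). The common biological coefficient of variation was 0.0594. P values were adjusted by Benjamini-Hochberg over all genes, and a change was called at an adjusted P under 0.05 and a log2 fold change beyond 0.32 in either direction. The methods name this tool, scaling and thresholds. Levels are CPM on the scaled library sizes, and log2 fold changes are given ± SE. For genes near 0, ratios of summed counts have exact 95% intervals. Intervals and floors cover counting error only, since libraries without molecular identifiers do not count independent molecules.

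The members and gene lists were chosen with earlier results of these data known, so a list is described by its counts and median beside those of all genes, with no set test. Named genes were a set fixed by role (of 104, Cdkn1c, Mlxipl, Lep and Cpt1b were not analysed here), up to 2 largest rises and 2 largest falls called in each list, the 10 largest rises and falls among genes above the median level whose libraries did not overlap, and the 3 largest differences from C70-treated cells in each direction above that level. Cell type markers and the genes with printed promoters were also named. A few genes that this rule chose are not reported here. Ccnb1, Pcna, Tyms, Ccnd3, Slc25a5, Hmgb1, Rpl13a, Rps2, Got2 and Gbp2 have named pseudogenes (1 to 11 each), and reads shared with these could make their values uncertain.

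All 11959 identifiers matched a symbol. Promoters came from RefSeq windows. On simulated counts for 11959 genes with 200 changed, the fit of day 7 against day 2 recovered 93% of 1.5-fold and 96% of 2-fold changes with 3 false calls. Apart from these 200 genes, the simulated libraries shared the same mean levels, and none stood apart as day 7 replicate 1 did. In the data 6378 genes were called, so the simulation checks the code and does not give the rate of false calls there. Alternatives were other scalings (relative log expression, quantile, total count), DESeq2 1.42.0, limma 3.58.1 voom, a stricter filter on low counts, other thresholds, the 7 libraries alone with and without a block for the replicate number, and each library left out in turn. Figures were drawn with matplotlib 3.10.9.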

Additional observations from a re-analysis of the deposited data

Results flagged for a closer look

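Within the 4 day 7 vehicle libraries, 274 groups of values (named genes and list levels) were examined for a library whose gap to its nearest neighbour relative to the range exceeded Dixon's 95% critical value for 4 samples. This was met in 36, where about 13.7 would be met by chance at 1 in 20. In 32 of the 36 the library was replicate 1, in 2 replicate 4 and in 2 replicate 2.

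Replicate 1 was highest for several adipocyte and mitochondrial genes. Its values were 4385 CPM for Cidec, 1620 CPM for Adipoq, 4274 CPM for Cfd, 553 CPM for Retn, 569 CPM for Agpat2, 885 CPM for Thrsp, 267 CPM for G0s2 and 1463 CPM for Bcat2, whereas it was lowest for Srebf1 (112.5 CPM). In the same library Cox4i1 was at 678 CPM, Atp5b at 2783 CPM, Slc25a4 at 369.5 CPM, Idh3g at 362 CPM, Ndufs3 at 253 CPM, Uqcrq at 413 CPM, Mrps28 at 33.2 CPM and Mrpl54 at 44.8 CPM. It was also apart for Cdkn2c (434 CPM), Cdkn1b (70.7 CPM), Pole4 (679 CPM), Hmgb1 (163 CPM), Bub1 (0 CPM), Acta2 (16.1 CPM), Kdm5c (130.5 CPM), Sult1a1 (228 CPM), Hsd11b1 (210.5 CPM) and Car12 (15.1 CPM). Its mean list levels, on the log2 scale centred over the vehicle libraries, were -0.77 for replication, 0.22 for ribosome biogenesis, 0.86 for the TCA cycle, 0.99 for complexes III, IV and V and -0.33 for KDM5 and other H3K4 enzymes. Replicate 4 was apart for Ndufs1 (380.4 CPM) and Clspn (0.164 CPM), and replicate 2 for Ccnb1 (0.845 CPM) and Sparcl1 (386 CPM).

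The change from day 2 to day 7 differed between C70-treated and vehicle cells by edgeR's test of the difference for the 6 genes chosen by size, with C70 minus vehicle log2 differences of -2.69 for Aqp1, -2.24 for Ndrg1, -2.24 for Spp1, 2.12 for Gpd1, 1.24 for Adipoq and 1.23 for Acsl1.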

How the results depend on the processing

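The number of changed genes, 6378, depended on the fold threshold. At a fold change over 1.5 it was 3863 (1946 higher and 1917 lower), and at a fold change over 2 it was 1833 (871 and 962). Under the other alternatives it lay between 4604 (without the least abundant genes, so that fewer were tested) and 8681 (adjusted P alone). It was 6388 with DESeq2, 6382 with limma voom and 4935 when edgeR tested against the fold threshold itself, and 6193 to 6479 with each library left out in turn. The number whose change differed after C70 was 1891 to 2617, against 2504. Between 23 and 28 of 41 lists had a median past the fold threshold, against 27. Under at least 1 scaling the median changed sign for fatty acid and glucose uptake (quantile -0.08, total count -0.01), lysosome and autophagy (total count -0.03) and genes of mitochondrial DNA (quantile -0.10), and that of contractile genes went from -0.02 to 0.04 without day 7 replicate 1. The median of the brakes on adipogenesis and preadipocyte markers went from -0.0052 to 0.039 without day 2 replicate 2, to 0.0036 without day 2 replicate 3 and to -0.22 without the least abundant genes.

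Whether replicate numbers pair the samples is not known. The deviations of same-numbered libraries correlated at 0.0751, 0.1496 and -0.1249, and not every library correlated best with its own number. With so few libraries, and day 7 replicate 1 apart from the others, these values cannot exclude a pairing. With a replicate block in the 7 libraries alone 5961 genes were called (2964 higher and 2997 lower), and without it 6153.

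Of 3925 values of named genes under the alternatives, 3796 kept their direction and side of the threshold, 96 lost the call, 25 gained it and 8 changed sign. Of 209 called named genes, 185 kept call and direction under every alternative run. Many of them were named for the size of their change, so this share does not describe all called genes. The 8 values that changed sign belonged to genes with no call, and of these Lpl and mt-Co1 passed both thresholds as falls under quantile normalization. With each library left out in turn, Cdkn1b ranged from -0.119 to 0.012, Nr3c1 from -0.166 to 0.0079 and Kdm5a from -0.206 to 0.016, each with its highest value without day 7 replicate 1. The others were Plin2 (-0.00074), Lpl (-0.35), Insr (-0.046) and mt-Co1 (-0.52) under quantile normalization and Insr (-0.016) under total count scaling. For these the cause was not tested.

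Depth limits the genes near 0 at day 7, such as Bub1, with 0 to 3 counts in each library.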
